A study of Mus musculus with 4 samples.

Results

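Predicted small RNA loci are positions at which the submitters' per-library lists reported a stack of short reads without giving it the name of a known mouse microRNA (miRNA). Windows of different libraries were taken as 1 locus when they lay on the same chromosome and strand and overlapped by at least 50% of the shorter, and a locus was kept when at least 2 libraries listed it. The members were thus chosen by being listed, a measured quantity, and not by any difference between the groups. This gave 350 loci with 195 distinct sequences, out of 660 predicted loci in any library and 1048 loci of either kind. The lists come from small RNA sequencing of whole blood from mice of the inbred Balb/c strain at 180 days of age, kept with free access to feed and water. There were 2 libraries of control mice and 2 of mice that drank water containing cadmium, a toxic metal. For dose and length of exposure, the sources used here give no value. Separate animals behind the 2 libraries of a group are not stated either, and the p-values then reflect library-to-library spread, which may be technical.

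A miRNA is cut from a hairpin precursor, and prediction programs look for positions where reads pile up with sharp ends and the surrounding sequence can fold back on itself. Abundant structured RNAs also break into pieces of miRNA length. These include ribosomal RNA (rRNA), the 7SL RNA of the signal recognition particle, which targets secreted proteins to the endoplasmic reticulum, the small nucleolar RNAs (snoRNAs), which guide chemical modification of rRNA, and transfer RNA (tRNA), which carries amino acids. Such pieces are known in blood cells and plasma.

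Values are given below in the order control 1, control 2, cadmium 1, cadmium 2. The listed counts summed to 43666624 and 30277884 for the controls and to 17064897 and 18575659 for the cadmium libraries, so the control libraries were the deeper ones. No list goes below a count of 5, and an unlisted locus has no measured value. Red-cell miRNAs (miR-486, miR-144 and miR-16) and leukocyte miRNAs (miR-150, miR-142, miR-181a and miR-181b) were listed in all 4 libraries. Other blood markers, miR-451, miR-223 and miR-126, were looked for under these names and found in none of the 4 lists. The other marker of platelets and endothelium beside miR-126, miR-199a, was listed in all 4 libraries, with 467, 222, 194 and 176 reads. Of the muscle miRNAs, miR-133a had 1074 and 294 reads in the controls and 695 and 699 in the cadmium libraries. The muscle miRNAs miR-1 and miR-206 were not listed under these names. Of the liver miRNAs, miR-192 was listed in all 4 libraries, and miR-122 had 16 reads in control 1, was not listed in control 2 and had 102 and 114 reads in the cadmium libraries. Whether this bears on the predicted loci was not tested. Predicted sequences, each counted once, held 51101, 36972, 12336 and 12675 reads.

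The results turn on a small number of sequences, shown here as listed, 5′ to 3′ in DNA letters, because they carry most of the reads and most of the differences between the groups. Coordinates are on GRCm38 (mm10), the names with base numbers give the RNA that the letters match, the others give the gene at the position, and the capitals mark a CCA end.
5S rRNA bases 98 to 120 (chrX:6106988-6107010, + strand, in the 5S gene n-R5s2): ggaataccgggtgctgtaggctt
5S rRNA bases 20 to 42 (chr4:149817751-149817773, + strand, in n-R5s193): tgaacgcgcccgatctcgtctga
5S rRNA bases 12 to 32 (chr10:27952387-27952407, + strand, no gene): taccaccctgaacgcgcccga
18S rRNA (chr17:39846725-39846745, + strand, in Rn18s-rs5): tttcgatggtagtcgccgtgc
7SL RNA bases 72 to 94 (chrX:145334279-145334301, - strand, in an intron of Lhfpl1): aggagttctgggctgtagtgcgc
CCA end, Gm49692 (chr12:20234313-20234331, + strand, in a gene that does not code for protein): aatcccggacgagcccCCA
CCA end, no gene (chrX:20420576-20420593, + strand): atctcggtggaacctCCA
CCA end, Rarb (chr14:16637196-16637217, - strand, in an intron): tcgagccccacgttgggcgCCA
E2f3 (chr13:29976220-29976240, - strand, in an intron): gacaaccagacttaaacccag
no gene (chr7:130834368-130834389, + strand): actctcatcgttttttcactga
Snora3 bases 1 to 19 (chr7:109520120-109520138, + strand, in the snoRNA gene): tccgaggctagagtcacgc

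The gene under a window was taken from the GENCODE annotation of GRCm38 on the window's own strand, and for rRNA and tRNA also from the RefSeq gene table of the same assembly, which was used without strand. Of the 350 loci, 16 lay in rRNA genes, 27 in snoRNA genes, 6 in small nuclear RNA (snRNA) genes, 2 in other small noncoding RNA genes and 13 in annotated miRNA genes. A further 31 lay in exons and 92 in introns of protein-coding genes, 19 in other genes and 144 in no annotated gene. No locus overlapped a tRNA gene of the RefSeq table. The loci are thus spread over many classes, with the share outside any gene the largest by this count. Copies of a sequence weigh on it: by distinct sequence, introns of protein-coding genes held 77 and no annotated gene 44. With genes on either strand counted, 125 loci lay in such introns and 98 in no gene.

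Position alone did not always name the RNA. Of 158 sequences outside the small noncoding classes by position, 11 matched the letters of an annotated small noncoding or ribosomal transcript elsewhere: 1 an rRNA, 2 another small noncoding RNA and 8 a miRNA gene. The most abundant of these was the Lhfpl1 window, whose letters are bases 72 to 94 of the 300-base 7SL gene Rn7s1. By position or letters, 48 sequences belonged to a small noncoding class and 147 did not. Among the 48 were 18 of the miRNA gene class, 10 of them by position and 8 by letters alone. The description of these loci as lying outside annotated miRNAs thus did not hold for the 10, which lie in annotated miRNA genes. The 8 were listed outside such genes but share letters with one.

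One sequence can be listed at several positions, which share its reads, though not at every position that fits it: that of 5S bases 20 to 42 matches 49 annotated genes and was listed at 1 position. Of the 195 sequences, 156 were listed at 1 position and 39 at more, with 28 positions for the most repeated. Those 39 sequences made up 194 of the 350 loci. Positions of one sequence therefore do not count as separate measurements, and counts of loci are given below together with counts of sequences.

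In length, first base and base composition the predicted sequences were close to the annotated ones. They were 18 to 23 bases long with a median of 21, and the median of the annotated miRNA sequences was also 21. T was the first base of 96 of 195 predicted sequences (49.2%, 95% Wilson interval 42.3 to 56.2%) and of 131 of 272 annotated sequences (48.2%, 42.3 to 54.1%). These intervals cover counting error only. The GC content of the predicted sequences ran from 18.2 to 90.5% with a median of 52.2%, against a median of 47.6% for the annotated ones. Classed by position or letters, the rRNA sequences had a median GC content of 60.9% and those of the miRNA gene class 45.5%.

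Listing in at least 2 libraries chose the members, so how often they are listed is a description. Control 1 listed 320 of the 350 loci, control 2 listed 304, cadmium 1 listed 270 and cadmium 2 listed 227. All 4 libraries listed 162 loci with 92 sequences. Just inside the rule were 91 loci listed in exactly 2 libraries, whose highest counts had a median of 16 and a maximum of 416. Just outside it were 310 loci listed in 1 library, with a median of 7 and a maximum of 1529, and 228 of these came from control 1, the deepest library.

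Both controls and no cadmium library listed 51 loci with 41 sequences, while 3 loci were listed by both cadmium libraries and no control. This counts positions, and a cadmium library can list the same sequence elsewhere. The letters at chr19:12904323-12904340 on the - strand, for example, were listed by cadmium 1 at other positions with 5 reads. The most abundant of the 51, outside any gene at chr9:17987801-17987822 on the + strand, had 416 and 222 reads in the controls, or 12.6 and 9.76 CPM (counts scaled to a common library total, defined below). The next, outside any gene on chromosome 18, had 341 and 121 reads (10.3 and 5.32 CPM). They were followed by loci in the 5S rRNA genes n-R5s159 and Gm23957, with 151 and 85 reads and 91 and 81 reads. Depth moved with the groups: 5 reads, the lowest count listed, equal 0.151 and 0.220 CPM in the controls and 0.314 and 0.304 CPM in the cadmium libraries. In 40 of the 51 loci both controls were above 0.314 CPM, and in 11 they were not. Most lay close to this limit: the lower control level had a median of 0.454 CPM over the 51 loci. The part of depth in these listings was not tested.

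The 3 loci listed by both cadmium libraries alone were few and mostly low. At chr5:149247993-149248015 on the - strand, in the 7SL gene Gm24105 and matching bases 236 to 258 of Rn7s1, the counts were 16 and 22. At chr19:38168528-38168547 on the - strand, outside any gene, they were 10 and 21. The third locus, on chromosome 1, had 156 and 130 reads, which are the counts that a Col6a6 window with nearly the same letters has in these libraries. The controls list that Col6a6 window too, with 690 and 227 reads, so the chromosome 1 locus is a second place of reads that all 4 libraries hold.

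The reads of the predicted loci were concentrated in a few sequences. The 5S rRNA sequence of bases 98 to 120 alone held 39.9 and 45.7% of them in the controls and 32.3 and 33.6% in the cadmium libraries. The 10 leading sequences held 82.4 and 84.4% in the controls and 75.5 and 77.1% in the cadmium libraries. A sum over all predicted loci therefore mainly follows 5S and 18S rRNA.

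Of all listed counts, with each sequence counted once, predicted loci made up 0.238 and 0.243% in the controls and 0.139 and 0.132% in the cadmium libraries. Both cadmium libraries were below both controls. The means were 0.241 ± 0.00369% (SD, n = 2) and 0.135 ± 0.00446% (SD, n = 2), a ratio of 0.563, with an exact two-sided permutation p of 0.333, the smallest that 2 against 2 libraries can give. Without the 2 most abundant sequences, an alternative added after the values were seen, the ratio was 0.712.

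The rRNA class showed the largest gap among the classes with over 0.01% of the counts in the controls. By position it held 0.150 and 0.170% of the counts in the controls and 0.0742 and 0.0745% in the cadmium libraries, a ratio of 0.465. The snoRNA class held 0.0131 and 0.0120% in the controls and 0.0117 and 0.0112% in the cadmium libraries, a ratio of 0.915. Its libraries also did not overlap between groups, by a narrow margin. For both classes the exact permutation p was 0.333, and that rRNA differed more than snoRNA was not tested.

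**Figure D1:**
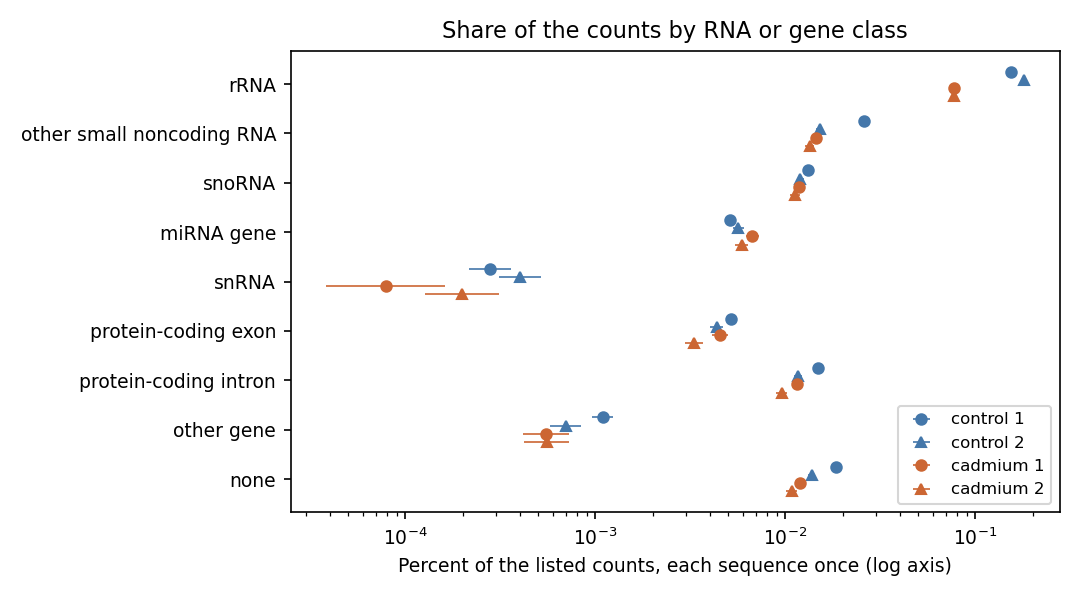
Percent of all listed counts (x axis, log scale) held by each class of predicted sequence, each sequence counted once and classed by position or by its letters, with 95% Wilson intervals for counting error only. Blue marks are the controls and orange marks the cadmium libraries, with circles for library 1 and triangles for library 2. In the rRNA class both cadmium libraries, at 0.0769 and 0.0773%, lie below both controls, at 0.154 and 0.180%.

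Differences of single loci were tested with edgeR's quasi-likelihood test on the counts, together with the annotated miRNA loci, with Benjamini-Hochberg adjustment over all rows and a threshold of 0.05. CPM values are relative to the sum of the fitted counts after TMM normalization, which scales each library by the bulk of its loci. A fold change is the cadmium level over the control level. Of the 350 loci, the 162 listed in all 4 libraries entered and 160 passed the filter on low counts. A locus that a library did not list could not be tested, so the counts below speak of the more abundant members only.

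With cadmium 18 of the 160 predicted loci were lower (11.2%) and 2 were higher (1.25%), and 140 did not pass the threshold. Over all 436 rows 8.26% were lower and 10.8% higher, and over the 276 annotated miRNA loci 6.52% were lower and 16.3% higher. The 18 lower loci belonged to 11 sequences and the 2 higher loci to 1 sequence. Counted by locus, lower calls were thus somewhat more frequent among predicted loci than over all rows, and higher calls less frequent. Whether these shares differ was not tested. Copies of a sequence enter them as separate loci. With 1 locus per sequence in the fit, 11 of the 20 called loci were tested and 5 kept the call.

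The median log2 fold change was -0.23 over the 160 predicted loci, 0.16 over the 276 annotated loci and -0.01 over all rows. Among the 21 predicted loci with a mean of 10 CPM or more, all 21 had a log2 fold change below 0, with a median of -0.80. Of the 128 annotated loci at that level 54 were below 0, with a median of 0.08. At 1 to 10 CPM the predicted median was -0.27 (59 of 82 below 0), and under 1 CPM it was 0.16 (23 of 57 below 0). The predicted loci thus lay below 0 more often in the upper levels than under 1 CPM. Only loci listed in all 4 libraries enter here. The lowest listed count equals 0.314 and 0.304 CPM in the cadmium libraries and 0.151 and 0.220 CPM in the controls. The part of this limit in the values under 1 CPM was not tested. Many predicted loci share a sequence: the 21 most abundant loci hold 11 sequences.

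Scaling moved these medians. With total counts in place of TMM the median of all rows was 0.21 and that of the predicted loci -0.01, and with upper-quartile scaling they were -0.32 and -0.54. The predicted loci lay below all rows under each. The number of predicted loci called lower was 12 with total counts and 39 with the upper quartile.

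**Figure D2:**
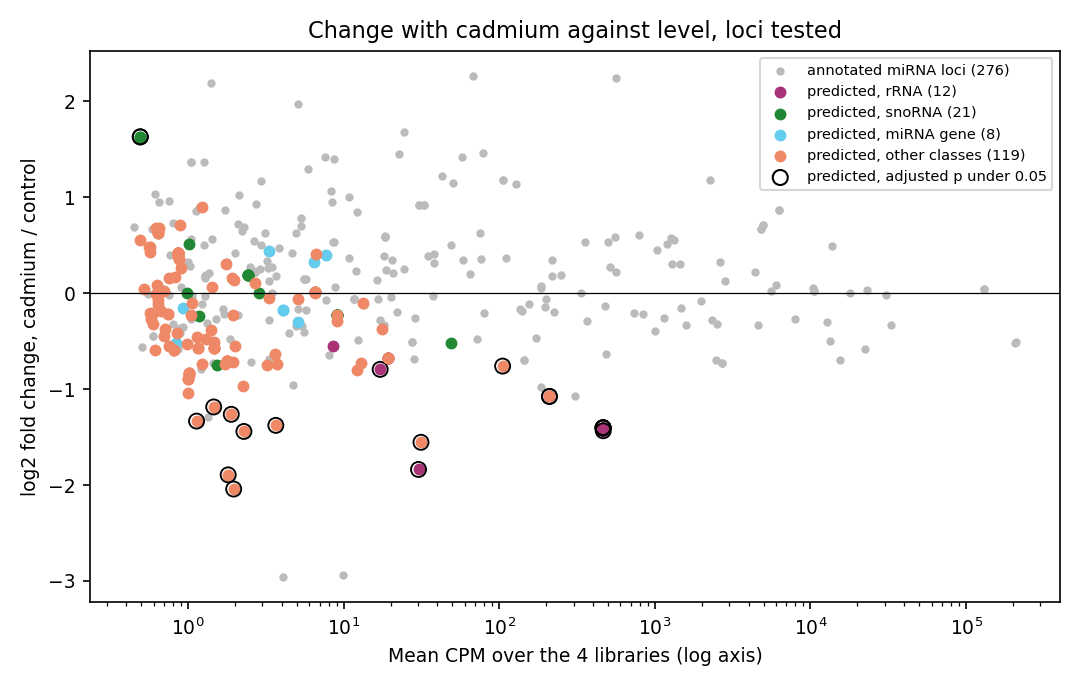
Log2 fold change of cadmium over control (y axis) against the mean CPM of the 4 libraries (x axis, log scale) for each tested locus. Grey points are the 276 annotated miRNA loci, coloured points the 160 predicted loci by class of position, and black rings the predicted loci with an adjusted p under 0.05. Above 10 CPM all 21 predicted loci lie below 0, and points of one sequence fall on top of each other.

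5S rRNA, a small RNA of the large ribosomal subunit, was the source of 8 sequences, 1 of them a rare form that differs by 1 base, and of the largest counts. Of the 5 that could be tested, 3 fell with cadmium and the other two were below 0 without passing the test at their most abundant position. In loci, 8 of 14 were called lower, where 8.26% of all rows were, with a median log2 fold change of -1.10. All 5S sequences together held 0.112 and 0.136% of the counts in the controls and 0.0536 and 0.0534% in the cadmium libraries.

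The sequence of bases 98 to 120, at the 3′ end of the RNA, had 20371 and 16906 reads in the controls and 3931 and 4205 in the cadmium libraries at n-R5s2. Its levels at n-R5s2 were 617 and 743 CPM in the controls and 247 and 256 CPM in the cadmium libraries, so the groups lay far apart. It was 2.70-fold lower, on the log2 scale -1.43 ± 0.18 (SE), at an edgeR adjusted p of 4.70e-07. The sequence is listed at 5 positions, and all 5 were called. At the 4 in the 5S genes on chromosome 8 the counts were nearly the same, 20067 and 16853 against 3986 and 4255. The call was made in each of the 19 alternatives in which it could be tested, with log2 fold changes from -1.75 to -1.16.

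The sequence of bases 20 to 42, in n-R5s193, showed the largest fall of the 5S sequences. It had 1539 and 1093 reads in the controls and 209 and 219 in the cadmium libraries, or 46.6 and 48.1 CPM against 13.1 and 13.3 CPM. Within each group the libraries differed by little beside the gap between the groups. It was 3.57-fold lower (log2 fold change -1.84 ± 0.26, SE, edgeR adjusted p 2.61e-06), and it too was called in all 19 alternatives.

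The sequence of bases 12 to 32 overlaps the previous one on the RNA but is listed at a position with no annotated gene. Its counts were 875 and 1529 in the controls and 245 and 270 in the cadmium libraries. The controls were far apart, at 26.5 and 67.2 CPM, and the cadmium libraries close, at 15.4 and 16.4 CPM. It was 2.94-fold lower (log2 fold change -1.56 ± 0.31, SE, edgeR adjusted p 0.000398). Without control 2 the log2 fold change was -0.77, still called, and the call was lost in 2 of 19 alternatives.

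Of the sequences from the middle of 5S rRNA, those that could be tested moved less. Bases 53 to 75 had 696 and 601 reads in the controls and 226 and 256 in the cadmium libraries, and a log2 fold change of -0.67 ± 0.27 (SE, edgeR adjusted p 0.0795) at 5 of its 6 positions. At its sixth position, n-R5s211 (chr1:46374249-46374271, + strand), the lists give slightly fewer reads, 668 and 531 against 190 and 216. There it was called lower (log2 fold change -0.80 ± 0.27, SE, edgeR adjusted p 0.0341). One set of reads thus fell on both sides of the threshold, which shows how close to it the value lies. Bases 55 to 75, in n-R5s161, gave 5.81 and 14.4 CPM in the controls and 6.53 and 7.18 CPM in the cadmium libraries, which overlap. Bases 49 to 71, at 2.75 and 3.56 CPM, and bases 67 to 86, at 4.57 and 3.74 CPM, were listed in the controls only. They have no fold change and may have moved more. That the ends of 5S rRNA differed more than its middle was not tested.

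**Figure D3:**
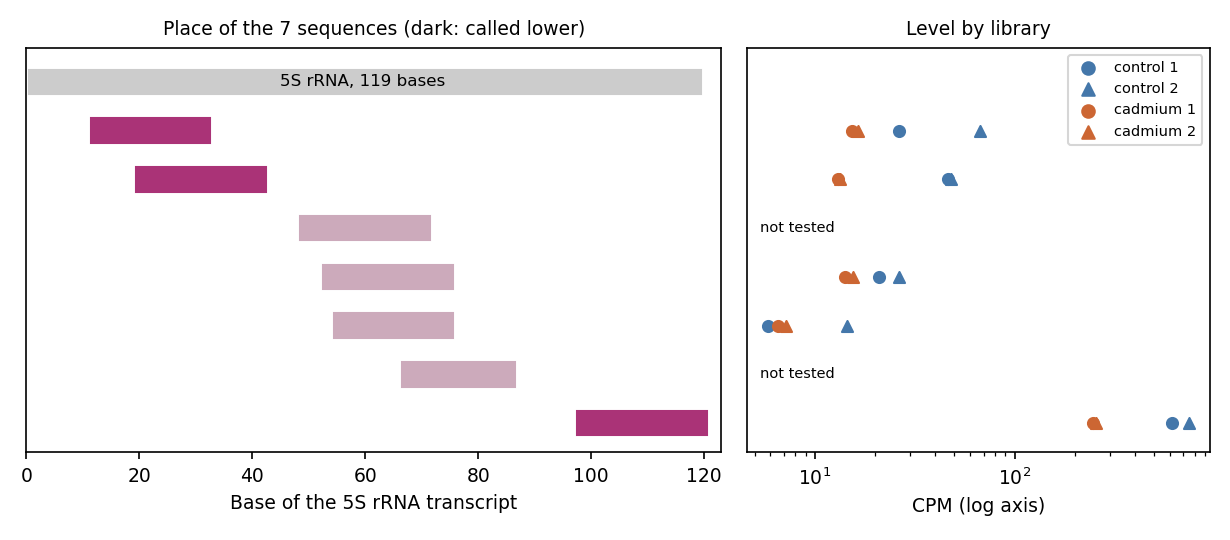
Left, the 7 sequences that match the most common 5S letters, drawn on the 119-base 5S rRNA transcript (x axis, base number), dark where the most abundant position was called lower. The last sequence runs 1 base past the annotated end. Right, the CPM of each sequence (x axis, log scale) in the controls (blue) and cadmium libraries (orange), with circles for library 1 and triangles for library 2. The 3 dark sequences have both cadmium libraries below both controls, and the 2 without points were not tested.

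18S rRNA, the RNA of the small ribosomal subunit, gave 1 sequence, in the ribosomal repeat Rn18s-rs5 of RefSeq on chromosome 17. It had 9140 and 6674 reads in the controls and 2080 and 2292 in the cadmium libraries. At 277 and 293 CPM the controls were close to each other and well above the cadmium libraries, at 131 and 140 CPM. It was 2.11-fold lower (log2 fold change -1.08 ± 0.19, SE, edgeR adjusted p 0.000141), and a copy outside any gene at chr6:3200814-3200834 carries the same counts. Without cadmium 1 the log2 fold change was -1.06 and the adjusted p 0.0767, the only one of 19 alternatives in which the call was lost. GENCODE places an rRNA gene of 1849 bases, CT010467.1, over this window on the opposite strand. Counted along the window's own strand, from the 3′ end of that gene, the window lies at bases 373 to 393.

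7SL RNA was the source of 4 sequences. That of bases 72 to 94 had 5464 and 2250 reads in the controls and 1267 and 1255 in the cadmium libraries, or 165 and 98.9 CPM against 79.6 and 76.4 CPM. Control 1 stood above the other three libraries, and the groups did not overlap. It was 1.69-fold lower (log2 fold change -0.76 ± 0.24, SE, edgeR adjusted p 0.0207). Without control 1 the log2 fold change was -0.34 and without control 2 -1.12, and without cadmium 1 or cadmium 2 the adjusted p was 0.343 or 0.416, so this call depended on single libraries. The call held in 10 of 19 alternatives. The other three, at bases 10 to 31, 236 to 258 and 250 to 272, were each missing from at least 1 list.

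**Figure D4:**
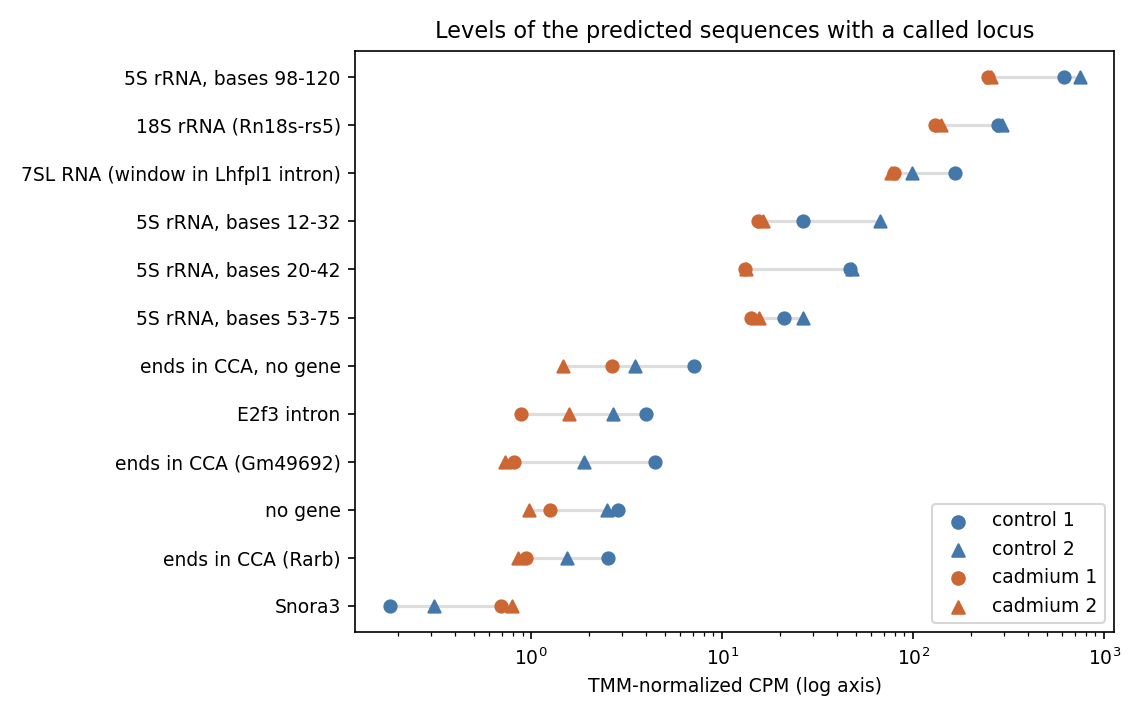
CPM (x axis, log scale) in each library for the 12 predicted sequences with at least 1 called locus, at their most abundant tested position. Blue marks are the controls, orange marks the cadmium libraries, circles library 1 and triangles library 2. In the upper 11 sequences both cadmium libraries lie below both controls, and in Snora3 both lie above. For 5S bases 53 to 75 the position drawn is one that did not pass the threshold.

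Sequences ending in the letters CCA were looked for after the values were seen, because mature tRNAs carry a CCA added to their 3′ end. There were 7 among the 195 predicted sequences (3.59%) and 2 among 272 annotated sequences (0.735%). Of the 6 that could be tested, 3 were called lower, where 8.26% of all rows were. All 6 had log2 fold changes below 0, from -2.04 to -0.55, as had 62 of the 90 predicted sequences tested. As they were chosen with their values known, this is a description.

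The Gm49692 sequence had 146 and 43 reads in the controls and 13 and 12 in the cadmium libraries. Control 1 was the highest, at 4.42 CPM, followed by control 2 at 1.89 CPM and the cadmium libraries at 0.817 and 0.731 CPM. It was 4.12-fold lower (log2 fold change -2.04 ± 0.44, SE, edgeR adjusted p 0.00078), the largest fall among the predicted sequences tested, and was called in 16 of 18 alternatives. At its other two positions, on chromosomes 12 and 16, fewer reads were listed and the log2 fold changes were -1.89 and -1.33, both called. The size of the fall rested on the controls: it was -2.54 without control 2 and -1.28 without control 1.

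The CCA sequence at chrX:20420576 had 234 and 79 reads in the controls and 42 and 24 in the cadmium libraries. It was 2.60-fold lower (log2 fold change -1.38 ± 0.37, SE, edgeR adjusted p 0.00805), and without control 1 its log2 fold change was -0.76 with an adjusted p of 0.123. Without cadmium 2 its adjusted p was 0.193. That in an intron of Rarb, the gene of a retinoic acid receptor, had 83 and 35 reads against 15 and 14 (log2 fold change -1.19 ± 0.42, SE, edgeR adjusted p 0.0457) and was called in 7 of 18 alternatives and 1 of the 4 fits with a library left out. The most abundant of the CCA sequences, at chr6:57199718-57199739 on the - strand, did not pass the test. It had 643 and 288 reads in the controls and 154 and 159 in the cadmium libraries (log2 fold change -0.73 ± 0.29, SE, edgeR adjusted p 0.0789). In each of these sequences control 1 had the highest level.

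The 2 remaining falls were in sequences that match no annotated small RNA. The sequence in an intron of E2f3, the gene of a transcription factor of the cell cycle, had 132 and 61 reads in the controls and 14 and 26 in the cadmium libraries. It was 2.72-fold lower (log2 fold change -1.44 ± 0.39, SE, edgeR adjusted p 0.00834), and without cadmium 1 the adjusted p was 0.277. The sequence at chr7:130834368 had 94 and 57 reads against 20 and 16 (log2 fold change -1.26 ± 0.39, SE, edgeR adjusted p 0.0200), and without cadmium 1 or cadmium 2 its adjusted p was 0.133 or 0.348. In both the groups did not overlap.

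The snoRNA genes held 27 loci with 15 sequences, of which 21 loci with 9 sequences were tested. By edgeR 0 were called lower (8.26% of all rows were), 1 at an unadjusted p under 0.05, and DESeq2 also called 0. The median log2 fold change of the 9 sequences was -0.0024. The most abundant, Snora41, an H/ACA snoRNA in an intron of Eef1b2, had 2078 and 1200 reads in the controls and 674 and 629 in the cadmium libraries. Its levels of 62.9 and 52.8 CPM and 42.3 and 38.3 CPM did not overlap, but the log2 fold change of -0.52 ± 0.24 (SE) did not pass the threshold (edgeR adjusted p 0.154). U3, the C/D snoRNA needed to cut the 18S precursor, gave 282 and 249 reads against 125 and 144 at 9 positions, with a log2 fold change of -0.23 and overlapping groups.

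The one sequence that rose lay at the 5′ end of Snora3, in the ribosomal protein gene Rpl27a. It had 6 and 7 reads in the controls and 11 and 13 in the cadmium libraries, at the edge of what the lists hold. Its levels were 0.182 and 0.308 CPM in the controls and 0.691 and 0.792 CPM in the cadmium libraries, or 3.09-fold higher (log2 fold change 1.63 ± 0.48, SE, edgeR adjusted p 0.0150). Both of the 2 higher loci carry this sequence. The call held in 1 of the 4 fits with a library left out, with adjusted p of 0.0861, 0.277 and 0.514 without control 1, cadmium 1 and cadmium 2.

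Where the snoRNA sequences lie in their RNAs was not used to choose them. Of the 15, 13 could be placed in an annotated snoRNA transcript. The 3′ end of 5 of them lay 0 to 4 bases before the end of the snoRNA, as in Snora41 (bases 108 to 128 of 132) and Snora7a (bases 115 to 136 of 140). Another 6 ended 42 to 50 bases before it, as in Snora2b and Snora78. An H/ACA snoRNA is made of a pair of hairpins, each followed by a short single-stranded box. The U3 sequence covered bases 46 to 67 of 214 in Rnu3a.

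The predicted loci in miRNA genes did not pass the test in either direction: by edgeR and by DESeq2 0 of 8 tested loci were called, with 0 at an unadjusted p under 0.05 (edgeR called 19% of all rows). The 2 most abundant lie in an intron of Sfmbt2, which holds a large array of rodent miRNAs. That in Gm26092, with letters shared by Mir669a genes, had 195 and 166 reads in the controls and 136 and 145 in the cadmium libraries (log2 fold change 0.40 ± 0.29, SE, edgeR adjusted p 0.363). That in Gm25022, shared with Mir467a genes, had 166 and 143 reads against 65 and 83 (log2 fold change -0.30). Reads of such near-identical copies cannot be assigned to one gene.

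On the strand opposite a known miRNA gene lay 4 sequences, of which 2 were tested. The one opposite Mir130a, at chr2:84741157-84741178 on the + strand, had 708 and 416 reads in the controls and 240 and 256 in the cadmium libraries, and its log2 fold change was -0.37 ± 0.27 (SE, edgeR adjusted p 0.363). The one opposite Mir183 had 53 and 23 reads against 19 and 12, with a log2 fold change of -0.46. Neither was called. Those opposite Mir1258 and Mir1958 were each listed in 2 libraries with at most 10 reads.

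Of the loci in protein-coding exons 13 were tested, and edgeR and DESeq2 called 0 of them, with 1 at an unadjusted p under 0.05, where edgeR called 19% of all rows. The most abundant, a sequence at 7 positions classed by its copy in Rpl9-ps1, had 251 and 122 reads in the controls and 114 and 98 in the cadmium libraries, with a log2 fold change of 0.01. That in Tmcc2 had 114 and 56 reads against 29 and 20, without overlap between groups (log2 fold change -0.97 ± 0.38, SE, edgeR adjusted p 0.0752). In introns 39 loci were tested and 3 were called lower, a share close to the 8.26% of all rows, namely the windows in Lhfpl1, Rarb and E2f3 described above. The median of the 39 was -0.51. The Col6a6 window, GC-rich, had 690 and 227 reads in the controls and 156 and 130 in the cadmium libraries, with a log2 fold change of -0.81 ± 0.31 (SE, edgeR adjusted p 0.0751).

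Of the 55 tested loci outside any gene, 6 were called lower, a share close to the 8.26% of all rows, and all 6 belong to sequences already described. The sequence at chrX:56728805-56728824 on the + strand, which matches neither strand of a known small RNA, had 579 and 231 reads in the controls and 233 and 184 in the cadmium libraries. Its groups overlapped, at 17.5 and 10.2 CPM and 14.6 and 11.2 CPM, and its log2 fold change was -0.10. Leaving out the sequences with a small noncoding class by position or letters left 63 tested sequences with 103 loci. Of these sequences edgeR called 5 lower, with a median log2 fold change of -0.23. Of the loci it called 7 lower, where 8.26% of all rows were. By edgeR or DESeq2 0 of the 103 loci were called higher, where edgeR called 10.8% of all rows higher. In edgeR 1 of them was higher at an unadjusted p under 0.05. The snRNA class had 1 tested locus, in Rnu12 of the minor spliceosome, with 24 and 16 reads in the controls and 7 and 19 in the cadmium libraries. Its groups overlapped. In the long noncoding gene Gm34821 the counts were 24 and 23 against 21 and 31, and the log2 fold change of 0.90 did not pass the test (edgeR adjusted p 0.160).

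Counted by whether the libraries of the groups overlap, 55 of the 160 predicted loci (34.4%) had both cadmium libraries below both controls and 29 (18.1%) had both above. Over all rows these shares were 24.5% and 34.9%, and over the annotated loci 18.8% and 44.6%. Within the pairs, the controls lay further apart than the cadmium libraries over the predicted loci, with an SD on the log2 scale of 0.463 against 0.260.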

How the data were processed

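The members, classes and named sequences were chosen with earlier results of these data known. Per the labels' protocols, small RNA libraries were prepared from total RNA of whole blood; sequencing used an Illumina HiSeq. The authors deposited 1 list per library with whole-number counts of mature reads per locus, not normalized. Bowtie 0.12.2, DESeq and the mm10 build are named in the submitters' processing notes, without their roles; the program that predicted loci is not named in the sources used here.

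An unnamed row holding a column total was left out (1 row). Where windows of one library merged, the highest count was used. Control 2's sequence column does not belong to its rows (162 of 693 lengths fit), so sequences come from the other libraries. Windows took the class of the first gene type they overlapped by at least 50% on their strand, in the order rRNA, tRNA, snoRNA, snRNA, other small noncoding RNA, miRNA gene, coding exon, coding intron, other gene. Letters were matched to GENCODE small RNA transcripts, allowing 3 bases past the 3′ end. Mature miRNA and hairpin sequences are from RefSeq. tRNA sequences were not used here.

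Counts of the 277 annotated and 162 predicted loci listed in all 4 libraries were tested for a group effect in R 4.3.3 by the two-sided quasi-likelihood F test of edgeR 4.0.16, after filterByExpr, which left 436, and TMM scaling. P-values were adjusted by Benjamini and Hochberg's method over these rows and read at 0.05. TMM factors were 0.934, 0.920, 1.10 and 1.05. Standard errors are the log2 fold change over the square root of F. The procedure was tested on simulated data. Named are the 10 sequences of highest mean CPM, up to 10 rises and falls past the threshold without overlap between groups, the 2 most abundant of each class, and the 3 most abundant listed in 1 group only; the sequences ending in CCA, those opposite a hairpin and the n-R5s211 position were added after their values were seen. Alternatives were other scalings, filters, DESeq2 1.42.0, the replicate number as a block, libraries left out, unlisted loci as 0 or 4 reads, 1 locus per sequence, other merging rules and predicted loci alone. Intervals on shares are 95% Wilson intervals. Pairs of libraries differed by far more than sampling noise (chi-square per degree of freedom 650 and 38.6), so neither is 1 library listed again. Other tools were matplotlib 3.10.9, SciPy 1.17.1, pandas 2.3.3 and Python 3.11.15.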

Additional observations from a re-analysis of the deposited data

How the results depend on the processing

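Of the 160 predicted loci tested, 18 were called lower and 2 higher, where 8.26% of all rows were lower and 10.8% higher. Shares over all rows in the alternatives are not given here. The counts below therefore do not set the predicted loci apart from other rows. Lower calls numbered 39 with upper-quartile scaling, 9 of 21 loci with a mean CPM of at least 10, 5 of 90 with 1 locus per sequence and 11 with predicted loci fitted alone. Higher calls numbered 0 with TMM factors from annotated loci, with a mean CPM of at least 10, with the DESeq2 Wald test and with 1 locus per sequence, and 14 with unlisted loci taken as 4 reads. With 1 library left out, lower calls ranged from 10 (without cadmium 1) to 48 (without control 2) and higher calls from 0 to 4; the lone library of a group is then assumed to vary like the pair of the other group. The cause of these changes was not tested, beyond the fewer loci or libraries tested. Of the 20 called loci, 14 kept an adjusted p under 0.05 with total counts, 15 of 18 with DESeq2, 10 without cadmium 1 and 8 with unlisted loci as 0.

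With the replicate number as a block 29 loci were lower and 2 higher, and all 20 called loci were among them. The labels do not say that the numbers mark pairs, and deviations of same-numbered libraries correlated at 0.275 over 160 predicted loci and 0.0306 over 276 annotated ones.

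The share of counts in predicted loci, cadmium over control, was 0.563 with each sequence counted once, 0.525 with every locus counted and 0.712 without the 2 most abundant sequences. In the alternatives with a value, 0 of the called log2 fold changes turned sign. With 2 libraries per group no exact permutation p below 0.333 is possible, and below about 10 reads a locus sits at the edge of the lists.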

Other observations

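Among the predicted sequences, 3 pairs of equal length differed by 1 base, counted from 1 at the 5′ end, with the base in capitals.
5S bases 98 to 120, more abundant form: ggaataccGggtgctgtaggctt
5S bases 98 to 120, G9A form (chr17:78859031-78859053, + strand, n-R5s29): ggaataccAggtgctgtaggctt
CCA end, more abundant form: atctcggtggAacctcca
CCA end, A11G form (chr10:26934929-26934946, + strand): atctcggtggGacctcca

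The G9A form was listed in the controls only, with 23 and 18 reads beside 20371 and 16906 of the abundant form, and it is the letters annotated in n-R5s29. The A11G form, listed at 28 positions, had 23, 12 and 5 reads in control 1, control 2 and cadmium 1 and was not listed in cadmium 2. In the third pair, T22C, both forms had at most 30 reads in any library.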
